A study of Mus musculus with 30 samples.

Results

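The comparison described here sets macrophages without Ticam2 against wild-type macrophages 6 h after lipoteichoic acid (LTA). It holds 6 of the 30 libraries of the study, 3 per genotype, chosen by the labels for genotype, ligand and time. The cells were bone marrow-derived macrophages, grown from whole mouse marrow in L929-conditioned medium that supplies the growth factor M-CSF. The labels name C57BL/6J mice, either wild type (WT) or Ticam2-/- (written KO). Each library came from 1 animal, 3 WT and 3 KO animals in all. Both groups received 100 ng/mL LTA for 6 h. They are set beside untreated WT and KO macrophages, WT and KO macrophages given 10 ng/mL lipopolysaccharide (LPS) for 6 h, and WT and KO macrophages given 100 ng/mL LTA for 2 h. The sources used here do not give the sex or age of the animals, whether the WT mice were littermates, or which part of Ticam2 the KO allele lacks.

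Ticam2 encodes TRAM, a TIR-domain adaptor that sits at membranes and bridges Toll-like receptor 4 to TRIF, the adaptor (encoded by Ticam1) that leads to the transcription factor IRF3 and to interferon beta. LTA is a cell wall component of Gram-positive bacteria sensed chiefly by Toll-like receptor 2, whose textbook adaptors are TIRAP and MyD88, leading to NF-kB and AP-1. Interferon beta made by the cells acts back on them through its receptor and raises a large set of interferon-stimulated genes.

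Ticam2 itself stood at 0.877, 1.34 and 1.17 CPM (read counts scaled to a common library size, here with TMM factors) in the 3 KO libraries and at 25.9, 28.1 and 23 CPM in the 3 WT libraries after LTA. The groups did not overlap, and the fitted difference, KO minus WT, was -4.49 ± 0.17 on the log2 scale (SE, adjusted p = 8.2e-31). All differences below are KO minus WT on the log2 scale unless stated otherwise, and a gene counts as higher or lower where its p from edgeR's quasi-likelihood test, adjusted by Benjamini-Hochberg over 15119 genes, is under 0.05. The 6 libraries held 10955806 to 12358851 counts, libraries of the same genotype correlated at 0.993 to 0.994 over log2 CPM and libraries of different genotype at 0.947 to 0.949. A count of 0 allows up to 0.263 to 0.27 CPM in KO and 0.325 to 0.333 CPM in WT by counting error (3 counts).

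After LTA, 4604 of 15119 genes (30.5%) were higher in KO and 4237 (28%) were lower when libraries were scaled by TMM, and the median difference over all genes was 0.0097. Scaled by total counts instead, 8906 (58.9%) were higher and 1837 (12.2%) were lower, and the median was 0.44. The 2 scalings thus differ by about 0.44 on the log2 scale for every gene, in the direction that makes KO higher under total counts. The mean TMM factor was 1.012 in KO and 0.748 in WT after LTA, against 1.148 and 1.132 in untreated KO and WT. A few very abundant transcripts moved with this difference. The 100 most counted genes took 39.2 to 39.3% of the counts in WT and 33.0 to 33.1% in KO. Cxcl2 alone took 2.03% in WT and 0.579% in KO, and Il1b 1.41% and 0.147%.

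Every gene called higher under TMM (4604) was also called higher under total counts. Of the genes called lower under TMM, 1837 were lower under both scalings, 1523 passed no threshold under total counts and 877 were called higher under total counts. Under TMM 395 genes were at least 4-fold higher and 471 at least 4-fold lower, against 765 and 294 under total counts. At 16-fold or more the counts were 21 higher and 66 lower under TMM, and 38 and 41 under total counts. For 7621 genes the TMM difference was smaller in size than 0.44, and those of them that are lower in KO under TMM turn to higher under total counts. Expression was lower in all 3 KO than in all 3 WT libraries, or higher in all 3, for 9813 genes (64.9%), so lack of overlap between the libraries is the common case in this comparison.

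**Figure D1:**
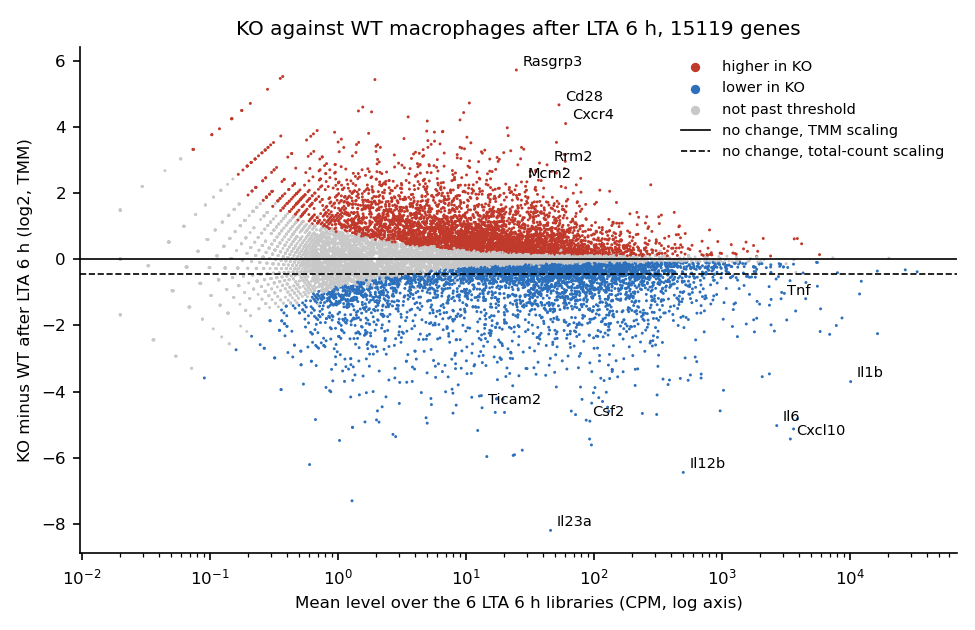
Each point is 1 of 15119 genes, with its mean level over the 6 LTA libraries (CPM, log axis) and the fitted KO minus WT difference after LTA 6 h (log2, TMM), and the 38 genes below 0.02 CPM are drawn at 0.02. The solid line is no change under TMM and the dashed line no change under total counts, 0.44 lower, with the cytokine genes Il23a, Il12b, Il6 and Il1b and the chemokine gene Cxcl10 far below both lines.

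The genes induced directly by IRF3 were lower in KO after LTA without exception in the list used, 12 of 12, with a median of -4.03 against 0.0097 over all genes. Under total counts 12 of 12 were also lower, with a median of -3.60. Cxcl10, a chemokine for activated T cells, stood at 159.6, 153 and 153 CPM in KO and 6769.5, 6617 and 6722 CPM in WT. Ccl5, another T cell chemokine, stood at 267, 267 and 263 CPM in KO and 7589, 7518 and 7436 CPM in WT. The KO and WT values lay far apart in both genes, with differences of -5.43 ± 0.044 (adjusted p = 2.3e-61) and -4.82 ± 0.049 (adjusted p = 4e-57). Rsad2 (viperin, an antiviral enzyme) stood at 76.4, 81 and 75.8 CPM in KO and 1938, 1826 and 1819 CPM in WT, a difference of -4.58 ± 0.049. Ifit1, which binds viral RNA, stood at 79.6, 81.5 and 79.1 CPM in KO and 1000.0, 1007 and 1025 CPM in WT, a difference of -3.66 ± 0.044. Isg15, a ubiquitin-like modifier, differed by -3.96 and Oasl1 by -4.66.

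Ifnb1, the gene of interferon beta, was scarce in every library. It stood at 0.614, 0.357 and 0.27 CPM in KO, from 7, 4 and 3 counts, and at 5.55, 6.17 and 5.32 CPM in WT, from 50, 57 and 49 counts. The groups did not overlap and the difference was -3.72 ± 0.28 (adjusted p = 2.8e-17).

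The promoters of Cxcl10, Ifit1, Rsad2, Il6 and Il12b are shown as examples, and each of these genes was lower in KO after LTA. They were not picked as the genes with the largest differences. Each line gives the 250 bases before the RefSeq transcription start (GRCm38.p6), 5′ to 3′ on the gene's strand. Capitals mark matches, on either strand, to 2 motifs. The first, GAAA followed by 2 bases of any kind and GAAA, is the core of the interferon-stimulated response element (ISRE) bound by IRF proteins. The second, GGGA followed by 4 bases of any kind and CC, is a form of the kB site bound by NF-kB. Cxcl10 (chr5:92348890-92349139, minus strand) held 1 match to the first motif, the leftmost capitals, and 2 to the second. Ifit1 (chr19:34640639-34640888, plus strand) held 2 matches to the first motif. Rsad2 (chr12:26456453-26456702, minus strand) held 1 match to the first, on the left, and 1 to the second. Il6 (chr5:30012864-30013113, plus strand) held 2 overlapping matches to the second motif. Il12b (chr11:44399813-44400062, plus strand) held neither motif in the bases shown.
Cxcl10: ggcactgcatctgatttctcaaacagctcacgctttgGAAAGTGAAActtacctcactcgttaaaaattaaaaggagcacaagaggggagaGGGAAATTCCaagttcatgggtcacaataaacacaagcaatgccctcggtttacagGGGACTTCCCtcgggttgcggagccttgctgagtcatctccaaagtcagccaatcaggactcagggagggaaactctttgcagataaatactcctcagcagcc
Ifit1: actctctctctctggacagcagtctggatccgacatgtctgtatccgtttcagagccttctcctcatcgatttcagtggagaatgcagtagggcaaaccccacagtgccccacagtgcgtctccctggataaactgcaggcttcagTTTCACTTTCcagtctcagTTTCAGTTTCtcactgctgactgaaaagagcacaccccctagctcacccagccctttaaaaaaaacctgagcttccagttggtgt
Rsad2: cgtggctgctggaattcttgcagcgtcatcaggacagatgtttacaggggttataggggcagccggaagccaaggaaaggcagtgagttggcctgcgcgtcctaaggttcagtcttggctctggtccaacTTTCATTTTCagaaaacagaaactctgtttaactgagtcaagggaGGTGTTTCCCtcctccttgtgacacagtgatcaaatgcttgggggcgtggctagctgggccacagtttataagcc
Il6: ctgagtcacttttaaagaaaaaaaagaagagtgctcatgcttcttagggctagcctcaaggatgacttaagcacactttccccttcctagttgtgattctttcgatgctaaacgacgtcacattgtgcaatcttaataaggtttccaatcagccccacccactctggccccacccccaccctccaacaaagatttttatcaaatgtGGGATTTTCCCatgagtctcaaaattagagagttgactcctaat
Il12b: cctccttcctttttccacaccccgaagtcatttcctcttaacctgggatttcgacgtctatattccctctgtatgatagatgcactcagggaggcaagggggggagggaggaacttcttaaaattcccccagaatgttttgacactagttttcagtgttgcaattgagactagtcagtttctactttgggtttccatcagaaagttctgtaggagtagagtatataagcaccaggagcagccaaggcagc

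Over all 32851 RefSeq promoter windows in the table (250 bases before to 50 after a start), 3.44% held the ISRE core and 20.7% held the kB form. The table had windows for 9803 of the 14254 tested genes with a symbol, and a gene can have several. Among 353 windows of genes at least 4-fold lower in KO after LTA, 17.0% held the ISRE core (60 windows) and 26.1% held the kB form. Among 363 windows of genes at least 4-fold higher in KO, the shares were 2.48% and 25.9%, and among 4423 windows of genes that did not pass the threshold they were 2.67% and 26.0%. Windows in which matches to the 2 motifs overlapped numbered 6 over the whole table. These shares are descriptions and were not tested.

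Of 58 tested interferon-stimulated genes, 56 were lower in KO and none was higher, with a median of -1.98 (54 lower and 3 higher under total counts, median -1.55). The 2 that did not pass were Ly6a (0.096) and Ifi27l2a (0.067). Mx1, a gene of the dynamin-like GTPase family, stood at 11.4, 8.65 and 10.3 CPM in KO and 136, 159 and 146 CPM in WT, a difference of -3.86 ± 0.076. Ifi205, Ifi209, Ifi211 and Ifi47 differed by -3.65, -3.6, -2.98 and -3.24. Genes of one family such as the Ifi200 cluster resemble each other, and how the authors' counting split reads among them is uncertain.

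The interferon-inducible GTPases, which attack the vacuoles of intracellular microbes, were lower in 14 of 15 cases with a median of -3.30 (total counts 14 of 15, -2.86). The remaining gene was Gbp8 (-0.56 ± 0.61, adjusted p = 0.45). Gbp5 stood at 5.35, 7.13 and 5.67 CPM in KO and 169.7, 189 and 182 CPM in WT, Gbp2 at 41.4, 36.6 and 42.8 CPM and 398, 385 and 417 CPM. Both sets of libraries were apart, by -4.89 ± 0.14 and -3.31 ± 0.057. Igtp and Iigp1 differed by -3.08 and -4.23.

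Among the transcription factors of the interferon system, 10 of 15 IRF and STAT genes were lower and 4 higher (median -0.57; 8 lower and 6 higher under total counts, median -0.14). Irf7, the factor that amplifies interferon production, stood at 87.3, 93.3 and 91.9 CPM in KO and 349, 356 and 352 CPM in WT (-1.96 ± 0.047). Stat2, which carries the signal of the interferon receptor, differed by -2.29, and Stat3 by -1.63. The 4 higher genes were Irf8 (0.89), Stat6 (0.58), Irf3 (0.18) and Irf5 (0.17). Irf4 did not pass (0.88).

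The inflammatory cytokine genes formed the second group with very large differences: 24 of 26 were lower in KO, 22 of them at least 2-fold, with a median of -3.67 (23 lower under total counts, median -3.23). Il12b, which encodes the subunit shared by interleukins 12 and 23, stood at 11.4, 11.7 and 11 CPM in KO and 939.8, 1050.2 and 973 CPM in WT. Il23a, the partner subunit of interleukin 23, stood at 0.175, 0.268 and 0.45 CPM in KO, from 2, 3 and 5 counts, and at 82.5, 95.5 and 96.4 CPM in WT. The KO libraries were close to the level that a count of 0 allows, and no KO library came near the WT range. The fitted differences were -6.44 ± 0.10 (adjusted p = 1.4e-27) and -8.19 ± 0.16 (adjusted p = 3.8e-44). The value of Il23a was the largest fall among the named genes and rests on the few KO counts given.

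Il6, a cytokine of the acute phase response, stood at 162, 155 and 163 CPM in KO and 5265, 5061 and 5299 CPM in WT, a difference of -5.03 ± 0.051. Il1a and Il1b, the fever cytokines, stood at 203, 200.1 and 202 CPM and 1432, 1441 and 1484 CPM in KO, and at 7169.6, 7044 and 6970.0 CPM and 18458, 19232 and 18834 CPM in WT. Their differences were -5.13 ± 0.045 and -3.7 ± 0.042. Csf2, the gene of the growth factor GM-CSF, stood at 5.88, 5.98 and 5.49 CPM in KO and 166, 162 and 178 CPM in WT (-4.86 ± 0.079). Il27, Lif, Inhba, Il10 and Csf3 differed by -4.69, -4.63, -5.43, -3.64 and -2.68.

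Tnf, the gene of tumour necrosis factor, changed much less. It stood at 1752, 1799 and 1739 CPM in KO and 4090.5, 3967 and 4060.3 CPM in WT, without overlap. The difference was -1.2 ± 0.037 under TMM (adjusted p = 3.6e-34) and -0.76 under total counts. The 2 cytokine genes that were not lower were Tnfsf9, higher by 1.28, and Il33 (-0.94, not past the threshold).

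**Figure D2:**
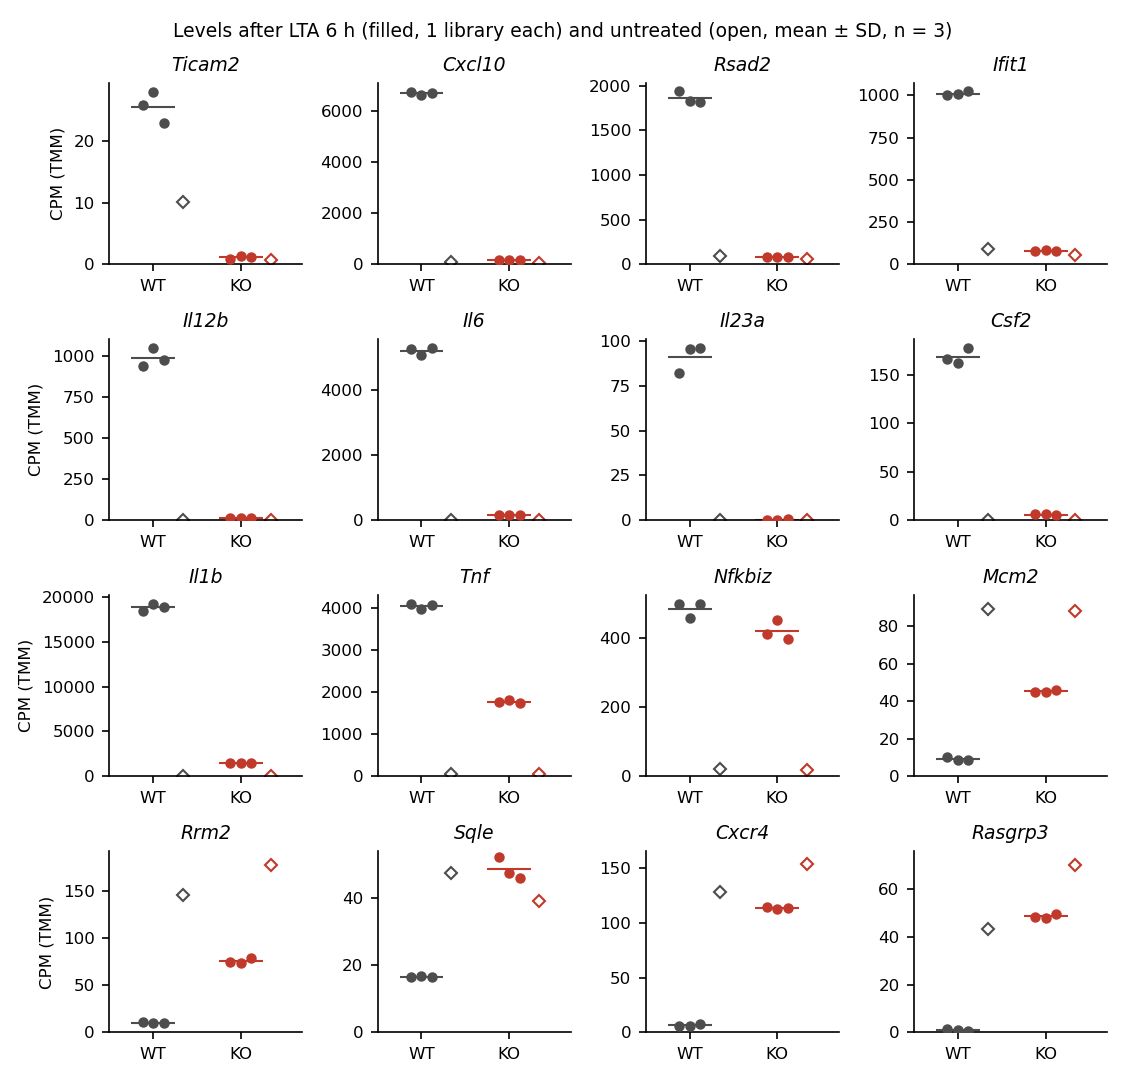
Levels in CPM (TMM, linear axes from 0) of 16 genes after LTA 6 h, with 1 filled point per library (3 WT, 3 KO), a bar at their mean and an open diamond for the untreated mean ± SD of the same genotype (n = 3). Cxcl10, Il12b, Il6 and Il23a are near the axis in KO and high in WT, Tnf is lowered less, and Mcm2, Rrm2, Cxcr4 and Rasgrp3 are lower in WT than in KO.

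The chemokine genes were lower in 15 of 16 cases (median -2.17; 13 lower and 1 higher under total counts, median -1.73), and the remaining one, Ccl6, was at 0.018. Ccl17 and Ccl22, ligands of the receptor CCR4, stood at 4.3, 3.3 and 3.87 CPM and 9.12, 11.5 and 10.5 CPM in KO and at 184, 189.7 and 189.5 CPM and 251, 246 and 257 CPM in WT. Their differences were -5.61 ± 0.078 and -4.6 ± 0.073. Cxcl1, a neutrophil attractant, stood at 325, 322 and 329 CPM in KO and 3719.8, 3795 and 3909.5 CPM in WT (-3.55 ± 0.052). Some chemokines remained abundant in KO, among them Cxcl2, at 5773, 5627 and 5744 CPM against 26942, 27407 and 27123 CPM in WT (-2.25), Cxcl3 (-2.27), Ccl3 (-1.77) and the monocyte attractant Ccl2 (-1.06). Among the 3 ligands Cxcl1, Cxcl2 and Cxcl3 of the receptor CXCR2, the differences thus ran from -3.55 to -2.25.

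Genes of the NF-kB pathway were lower by less. Of 11 subunit and IkB genes, 10 were lower, with a median of -1.20 (9 lower and 2 higher under total counts, median -0.77). Nfkb1 and Nfkb2, precursors of p50 and p52, differed by -1.63 ± 0.043 and -2.18 ± 0.043. Nfkbia, which encodes the inhibitor IkBa and is itself an early NF-kB target, stood at 4105, 4065 and 3951 CPM in KO and 7126, 7086 and 7123 CPM in WT (-0.82 ± 0.037; total counts -0.38). Nfkbiz, an atypical IkB needed for secondary response genes such as Il6, stood at 409.7, 451 and 398 CPM in KO and 499, 456 and 499 CPM in WT. Its difference was -0.21 ± 0.045 under TMM (adjusted p = 7.2e-05) and 0.23 under total counts, so it has no direction that holds under both. Nfkbid did not pass under TMM (-0.022).

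Of 20 feedback inhibitors, 16 were lower and 1, the phosphatase gene Dusp4, was higher (1.17), with a median of -0.87 (13 lower and 5 higher under total counts). The cytokine signalling inhibitors Cish, Socs1 and Socs3 differed by -4.3, -3.33 and -1.81, and Tnfaip3, which encodes A20, by -1.76. Of 24 AP-1 and immediate early genes, 16 were lower and 5 higher, with a median of -0.70 (14 lower and 6 higher under total counts). The 5 higher genes were Myc (2.03), Klf2 (1.96), Egr2 (1.95), Jun (0.69) and Klf4 (0.33). Ier3, Ier2, Fosl2 and Hif1a, the oxygen-sensing factor that also rises in activated macrophages, differed by -2.44, -2.1, -1.9 and -1.53. Nr4a3, an orphan nuclear receptor of the immediate early class, was among the 12 largest falls, at 1.05, 0.535 and 1.35 CPM in KO and 53, 53.9 and 55.8 CPM in WT (-5.77 ± 0.13).

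The receptors, adaptors and kinases of the Toll-like receptor 2 pathway had a smaller median difference, -0.29. Of 28 genes, 17 were lower, 3 of them at least 2-fold, and 5 were higher. Under total counts 12 were lower and 13 higher, with a median of 0.15. Tlr2 stood at 296, 292 and 292 CPM in KO and 513, 499 and 487 CPM in WT, and Cd14, its co-receptor, at 3178, 3056 and 3028 CPM and 8685, 8550.4 and 8937 CPM. Neither gene's KO libraries overlapped with WT, and the differences were -0.77 ± 0.045 (total counts -0.33) and -1.5 ± 0.041 (total counts -1.06). Myd88 differed by -0.99 ± 0.048. Ticam1, which encodes TRIF, stood at 30.4, 29 and 29.7 CPM in KO and 25.9, 30.3 and 32.1 CPM in WT, with overlap (0.013 ± 0.079, adjusted p = 0.9; total counts 0.45). The 5 higher genes were Cd36 (0.69), Traf3 (0.61), Tab1 (0.59), Tlr4 (0.46) and Irak1 (0.32).

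Effector genes of the activated macrophage were lower too. Of 33 secondary inflammatory and antimicrobial genes, 32 were lower, 29 of them at least 2-fold, with a median of -2.15 (31 lower under total counts, median -1.72). Nos2, the inducible nitric oxide synthase, stood at 23.6, 23.9 and 24.7 CPM in KO and 272, 292 and 285 CPM in WT (-3.55 ± 0.062). Ptgs2, the cyclooxygenase of inflammatory prostaglandin synthesis, stood at 393, 382 and 397 CPM in KO and 4225, 4341 and 4373 CPM in WT (-3.46 ± 0.043). Acod1, the enzyme that makes itaconate, kept more of its level, at 978, 970.1 and 987 CPM in KO and 3853, 3887 and 3862 CPM in WT (-1.98 ± 0.039). Saa3 and Lcn2, acute phase and iron-sequestering proteins, differed by -2.0 and -2.15, and Ptx3, Serpinb2, Slc7a2 and Mmp13 by -4.7, -4.02, -3.62 and -3.09. The matrix protease gene Mmp9 was the member that was higher (0.79 ± 0.13).

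All 19 genes of MHC class I presentation were lower (median -1.15; 16 lower and 1 higher under total counts, median -0.71). Tap1, a subunit of the peptide transporter, stood at 53.9, 52.4 and 49.9 CPM in KO and 324, 316 and 339 CPM in WT (-2.65 ± 0.048), and Tap2 differed by -1.95. Of 10 class II genes, 6 were lower with a median of -0.41 (4 lower and 3 higher under total counts). H2-Ab1, H2-Eb1, H2-Aa and Cd74 differed by -1.84, -1.24, -1.19 and -1.17, and these 4 were already lower in untreated KO cells, with differences of -1.24, -1.08, -1.09 and -0.92. How reads were split among H2 genes is uncertain.

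Of 12 co-stimulation and checkpoint ligand genes, 11 were lower (median -2.20; 9 lower and 2 higher under total counts), and Cd83 did not pass (0.061). Cd40 stood at 91.3, 91.9 and 93.8 CPM in KO and 1050.3, 1018 and 1062 CPM in WT (-3.5 ± 0.044). Cd274, which encodes PD-L1, differed by -2.9, and the adhesion molecule gene Icam1 by -1.1. Of 11 genes of the inflammasome and lytic death, 8 were lower and 2 higher (Ripk3, 0.82, and Pycard, 0.29), with a median of -0.85 (7 lower and 3 higher under total counts, median -0.42). Nlrp3 and Casp4 differed by -1.4 and -1.46.

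**Figure D3:**
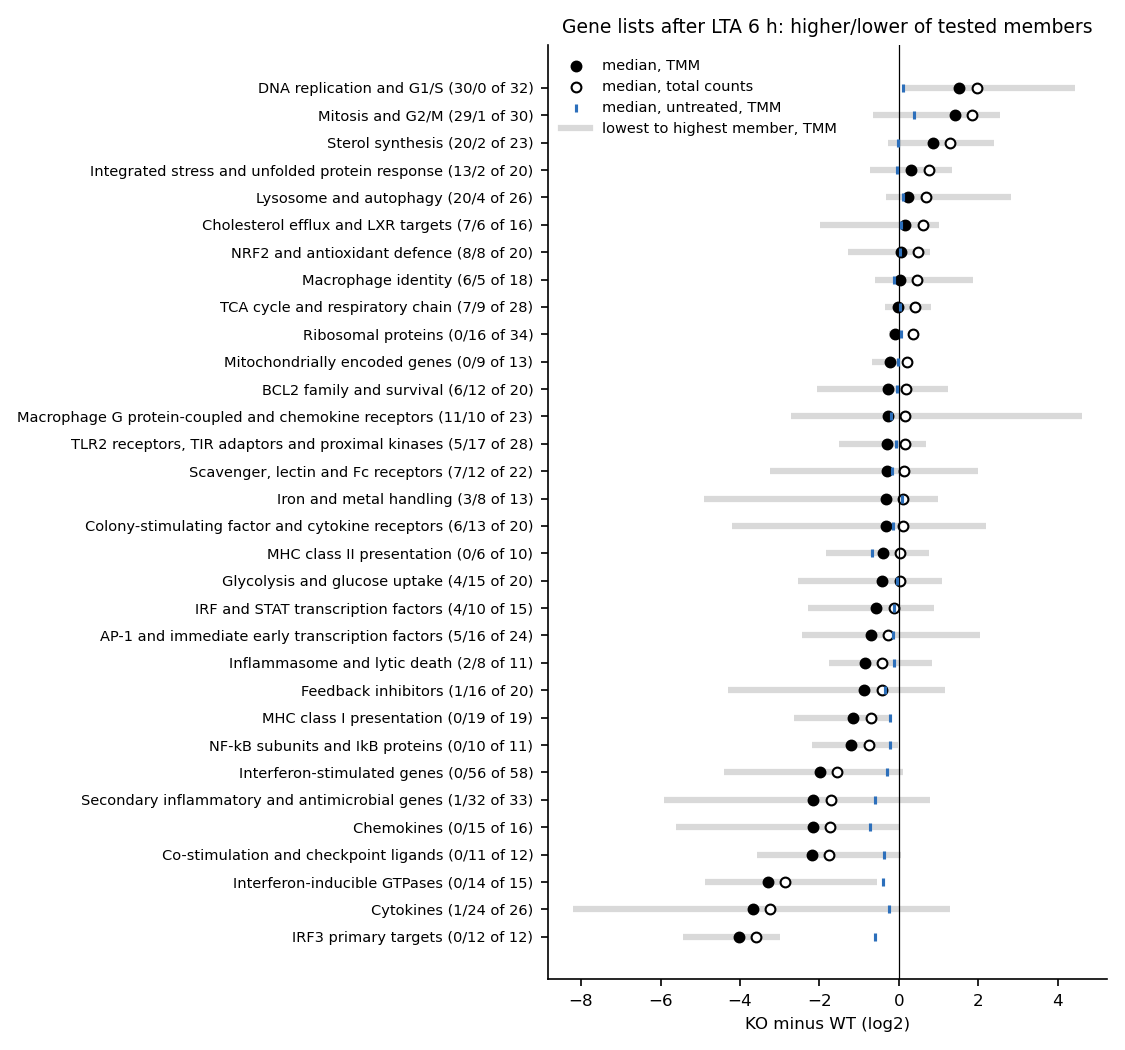
The 32 gene lists with at least 10 tested members, with the median KO minus WT difference after LTA 6 h (log2) under TMM (filled) and total counts (open), the range of members under TMM (grey bar) and the median in untreated cells (blue tick). IRF3 targets and cytokines have the lowest medians, DNA replication and mitosis the highest, and the total-count medians lie about 0.44 to the right throughout.

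On the other side stood genes of cell division, which macrophages in growth factor express and turn down on activation. Of 32 genes of DNA replication and entry into S phase, 30 were higher in KO and none was lower, with a median of 1.52 (32 higher under total counts, median 1.96), and the 2 that did not pass were Ccne1 (0.29) and Tyms (0.10). Mcm2, a subunit of the replicative helicase, stood at 44.9, 44.9 and 46.3 CPM in KO and 10.1, 8.44 and 8.46 CPM in WT (2.33 ± 0.082, adjusted p = 9.2e-32). Rrm2, a subunit of ribonucleotide reductase, stood at 75.2, 73.3 and 78.8 CPM in KO and 10.8, 10.4 and 10.3 CPM in WT (2.85 ± 0.069). Both were lower than untreated in each genotype, with smaller differences in KO: Mcm2 with -0.96 in KO and -3.31 in WT, and Rrm2 with -1.23 and -3.8. Uhrf1, Mcm7, Ccne2 and E2f2 differed between genotypes by 2.52, 2.11, 3.86 and 4.43.

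Of 30 mitosis genes, 29 were higher with a median of 1.41 (29 higher under total counts, median 1.84). Ccna2 (cyclin A2) stood at 46.4, 50.3 and 47.9 CPM in KO and 11.9, 12 and 10.2 CPM in WT (2.08 ± 0.083), and Kif23, Cdc20 and Birc5 differed by 2.14, 1.42 and 1.32. Mki67, the gene of the proliferation antigen Ki-67, was the exception. It stood at 31.8, 34.5 and 31.8 CPM in KO and 46.9, 57.4 and 50.01 CPM in WT, without overlap (-0.66 ± 0.076, adjusted p = 7.5e-11; total counts -0.22). RNA of dividing cells in bulk libraries cannot tell a larger share of cycling cells from more RNA per cell.

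Genes of sterol synthesis were higher in 20 of 23 cases (median 0.86), and in 23 of 23 under total counts (median 1.29). Msmo1 and Sqle, enzymes of the late pathway, stood at 77.4, 71.3 and 74.7 CPM and 52.1, 47.4 and 46 CPM in KO, and at 19.9, 19.6 and 21.7 CPM and 16.6, 16.7 and 16.5 CPM in WT. The differences were 1.87 ± 0.062 and 1.55 ± 0.071, beside untreated KO means of 85.8 ± 0.994 and 39.2 ± 0.928 CPM (SD, n = 3). Against untreated cells Msmo1 changed by -0.20 in KO and -2.08 in WT, and Sqle by 0.31 and -1.51. Under TMM 2 members were lower, among them Srebf2 (-0.28), the gene of a transcriptional activator of the pathway, which was higher under total counts (0.16). Of 16 tested genes of the cholesterol efflux list, 7 were higher and 6 lower (median 0.16; 10 higher and 4 lower under total counts, median 0.60). Abca1, the cholesterol exporter, and Ch25h, which makes 25-hydroxycholesterol, were lower in KO (-1.98 and -1.51), and Npc1 was higher (0.86).

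Of 26 lysosome and autophagy genes, 20 were higher and 4 lower (median 0.24; 25 higher and none lower under total counts, median 0.67). Tfeb, the master regulator of lysosomal genes, stood at 18.9, 18.9 and 16.9 CPM in KO and 2.33, 2.49 and 2.93 CPM in WT (2.81 ± 0.13). The lysosomal hydrolase genes Lipa, Psap and Ctsd differed by 0.98, 0.52 and 0.47. The integrated stress and unfolded protein response list had 13 of 20 genes higher and 2 lower (median 0.31; 19 higher and 1 lower under total counts, median 0.75), and the chaperone gene Hspa5 was lower (-0.72) while Herpud1 was higher (0.65).

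Of 23 G protein-coupled and chemokine receptor genes, 11 were higher and 10 lower (median -0.28; 13 higher and 8 lower under total counts, median 0.16). Cxcr4, the receptor of CXCL12, stood at 115, 113 and 114 CPM in KO and 5.99, 6.27 and 7.59 CPM in WT (4.1 ± 0.082, adjusted p = 2.5e-43). Cx3cr1, the fractalkine receptor, stood at 78.1, 84.4 and 79.3 CPM in KO and 11.5, 13.6 and 13.2 CPM in WT (2.65 ± 0.078). Cnr2, the cannabinoid receptor of immune cells, was scarce, at 3.07, 3.3 and 2.7 CPM in KO and 0.111, 0.108 and 0.108 CPM in WT, where each library held 1 count. The receptor genes that were lower included Hcar2 (-2.18) and Adora2b (-1.98). Of 20 cytokine receptor genes, 6 were higher and 13 lower (median -0.33; 9 higher and 7 lower under total counts, median 0.10), with Il6ra higher by 2.2 and Il15ra and Tnfrsf1b lower (-4.21 and -1.36).

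The largest rises among genes with a mean of at least 3 on the log2 CPM scale were Cd28 (4.66), Cxcr4, Susd3 (3.97), the inositol transporter gene Slc5a3 (3.73), Cd300lb (3.53), Mtss1 (3.38), Kcnk13 (3.32), Gcnt1 (3.3), Rassf3 (3.28), Hpgd (3.25), Hip1 (3.22) and Arhgap19 (3.21). Rasgrp3, an activator of Ras-family GTPases, had the largest rise of all named genes, at 48.4, 47.8 and 49.8 CPM in KO and 1.33, 0.865 and 0.542 CPM in WT (5.72 ± 0.14). In untreated cells Rasgrp3 stood at 70.2 ± 2.17 CPM in KO and 43.2 ± 0.809 CPM in WT (SD, n = 3 each). Against untreated cells it was lower in both genotypes, with a log2 difference of -0.53 in KO and -5.55 in WT. Cd28, known as a co-stimulatory receptor of T cells, stood at 149 ± 4.96 CPM in untreated KO, 112 ± 1.17 CPM in untreated WT, 103 ± 1.54 CPM in KO after LTA and 4.04 ± 0.819 CPM in WT after LTA.

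Among 18 macrophage identity genes, 6 were higher and 5 lower (median 0.026; 15 higher and none lower under total counts). These counts stand beside 30.5% higher and 28.0% lower over all genes under TMM, and 58.9% and 12.2% under total counts. Lyz2, the lysozyme of macrophages, did not pass under TMM (0.034), and Spi1, the gene of the lineage factor PU.1, was lower by TMM (-0.46 ± 0.049; total counts -0.027). Cebpa, a transcription factor of the myeloid lineage, was higher (1.86 ± 0.12).

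The metabolic and housekeeping groups had small TMM medians whose sign turned with the scaling. Their counts stand beside 30.5% higher and 28.0% lower over all genes under TMM, and 58.9% and 12.2% under total counts. Of 34 ribosomal protein genes, 16 were lower and none higher under TMM (median -0.093), while 34 were higher under total counts (median 0.34). Of 13 mitochondrially encoded genes, 9 were lower under TMM (median -0.23) and 8 higher under total counts (median 0.20). Of 28 genes of the TCA cycle and respiratory chain, 7 were higher and 9 lower under TMM (median -0.026), and 26 higher under total counts (median 0.41). Of 20 genes of glycolysis and glucose uptake, 4 were higher and 15 lower under TMM (median -0.42), and 9 higher and 6 lower under total counts (median 0.016). In the last group Pfkfb3, Hk2 and the glucose transporter gene Slc2a1, enzymes and carriers that activated macrophages raise, were lower under both scalings (TMM -2.55, -1.85 and -1.41; total counts -2.11, -1.41 and -0.97).

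Untreated KO and WT macrophages differed in 2034 of 15119 genes (13.5%), of which 28 were at least 2-fold higher and 96 at least 2-fold lower in KO. The difference between the genotype effect after LTA and that without treatment was itself tested, and 6789 genes (44.9%) passed, 3752 more positive and 3037 more negative with LTA (7970 and 1262 under total counts). Cxcl10 differed by -0.70 in untreated cells, and LTA changed that difference by -4.73 ± 0.06 (adjusted p = 2.2e-51). Il12b was scarce in untreated cells of both genotypes (1.23 ± 0.254 CPM in KO and 1.21 ± 0.13 CPM in WT, SD, n = 3), and its further difference was -6.47 ± 0.53. The genotype difference became more negative with LTA in 11 of 12 IRF3 targets (median of the change -3.21), 55 of 58 interferon-stimulated genes (-1.77), 24 of 26 cytokines (-3.19), 15 of 16 chemokines (-1.78) and 27 of 33 secondary inflammatory genes (-1.33). It became more positive in 30 of 32 replication genes (1.43), 27 of 30 mitosis genes (1.02) and 19 of 23 sterol genes (0.90). Among interferon-stimulated genes, 46 of 58 were already lower in untreated KO cells (median -0.30), and among class II genes 8 of 10 were (median -0.68).

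The responses themselves show how much LTA still did in KO cells. Against untreated cells, 10776 genes (71.3%) changed in WT and 7898 (52.2%) in KO under TMM, of which 2160 and 996 were at least 2-fold higher and 2658 and 677 at least 2-fold lower. Under total counts 1249 and 800 were at least 2-fold higher, and 4994 and 1129 at least 2-fold lower. These comparisons share the LTA libraries with the genotype comparison, so their values stand side by side without a test. Responses had a median over all genes of 0.013 in WT and 0 in KO under TMM, and of -0.58 and -0.18 under total counts. Small responses and small gaps between the genotypes thus depend on the scaling, and the values that follow are under TMM. Il6 rose by 9.45 in WT and by 4.63 in KO, Il1b by 8.14 and 4.99, Tnf by 6.14 and 5.27, and Nfkbiz by 4.59 and 4.54. Rsad2 rose by 4.44 in WT and 0.42 in KO, Ifit1 by 3.49 and 0.52, and Mx1 rose by 3.35 in WT and was at 0.11 in KO (adjusted p = 0.45). Of 26 cytokine genes, 25 rose in WT (median 6.25) and 22 in KO (median 2.73). Of 58 interferon-stimulated genes, 54 rose and 4 fell in WT (median 1.54), whereas 12 rose and 28 fell in KO (median -0.15).

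LPS signals through Toll-like receptor 4, where TRAM is a known component, so the same genotype difference after LPS is the natural comparison. After LPS 9576 genes (63.3%) differed between KO and WT. The genotype difference with LTA was itself different from that with LPS in 3425 genes (22.7%), 2043 more positive and 1382 more negative with LTA (1664 and 2304 under total counts), of which 503 were at least 2-fold more positive and 154 at least 2-fold more negative with LTA. The interferon genes were lowered less with LTA: the difference was more positive in 58 of 58 interferon-stimulated genes (median of the change 0.91), 11 of 12 IRF3 targets (1.38), 13 of 15 GTPases (1.14) and 16 of 19 class I genes (0.50), against 0.0079 over all genes. Rsad2 differed by -6.33 with LPS and -4.58 with LTA, a change of 1.75 ± 0.064 (adjusted p = 6.5e-29). Nos2 differed by -5.32 and -3.55, and Ccl2 by -2.06 and -1.06. Changes were ranked among genes with an established symbol and a mean log2 CPM of at least 3 over the LTA and LPS 6 h libraries. The 6 largest in this direction were in Fcgr1, the high-affinity IgG receptor gene (-3.16 with LPS, -0.68 with LTA), Cxcl9 (-6.61 and -4.13), Fgl2 (-2.78 and -0.32, the latter 0.11 under total counts), Slc28a2 (-3.94 and -1.54), Iigp1 (-6.62 and -4.23) and Mxd1 (-3.48 and -1.09). Cxcl9 and Iigp1 were scarce in KO after LTA, with means of 1.36 and 1.95 CPM.

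Other genes were lowered more with LTA than with LPS. The cytokine list was split, with 13 of 26 genes more negative and 8 more positive with LTA. Csf2 stood at 9.45 ± 0.375 CPM in KO and 10.2 ± 0.742 CPM in WT after LPS (SD, n = 3), a difference of -0.11 ± 0.12 (adjusted p = 0.41), against 5.78 ± 0.258 and 169 ± 8.23 CPM after LTA. The WT level was far higher with LTA than with LPS, and the change in the genotype difference was -4.75 ± 0.15 (adjusted p = 2.1e-31). Il23a stood at 0.498 ± 0.024 CPM in KO and 6.92 ± 1.05 CPM in WT after LPS, against 0.298 ± 0.14 and 91.5 ± 7.77 CPM after LTA, a change of -4.44 ± 0.58. Lif changed by -3.36 ± 0.34, Ccl17 by -2.23, Cxcl1 by -1.91 and Cxcl3 by -1.59. Cxcl1 stood at 294 ± 26 CPM in KO and 912 ± 31.4 CPM in WT after LPS, where WT was again the group that differed most from its LTA level of 3808 ± 95.5 CPM. Tnf differed by -0.25 with LPS and -1.2 with LTA (change -0.94 ± 0.052). Doses differ between the ligands (10 ng/mL LPS, 100 ng/mL LTA), so ligand and dose cannot be told apart here.

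**Figure D4:**
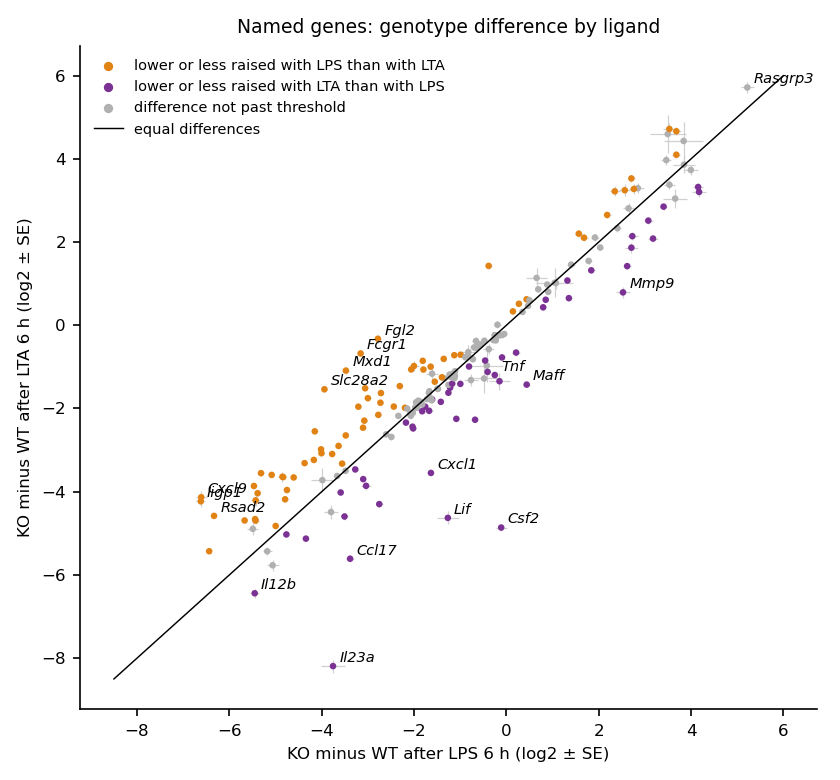
KO minus WT differences (log2 ± SE) of the 201 named genes after LPS 6 h (x axis) and LTA 6 h (y axis), coloured by the test of the difference between the 2 values, with a line of equal differences. Il23a, Csf2, Lif and Cxcl1 lie below the line, lowered more with LTA, and Fcgr1, Fgl2, Mxd1 and Slc28a2 lie above it, lowered more with LPS.

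Some genes were changed in opposite directions by genotype under the 2 ligands. Maff, a small MAF factor, was lower in KO with LTA (-1.43) and higher with LPS (0.44). It stood at 67.2 ± 3.11 CPM in KO and 181 ± 5.43 CPM in WT after LTA, and at 70.4 ± 6.26 and 52 ± 3.21 CPM after LPS (SD, n = 3 each). Mki67 was lower with LTA (-0.66) and higher with LPS (0.21) and in untreated cells (0.38). Mmp9 was higher under both, by less with LTA (0.79 against 2.53).

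The last group set beside LTA 6 h is LTA for 2 h, as 6 libraries are labelled, while the harvest text of the labels gives 6 h alone, so the 2 h values rest on the sample labels. These libraries were shallower, with 1452884 to 2191199 counts, and Hba-a2, a haemoglobin gene at 2020.4 ± 90.6 CPM in WT after LTA 6 h (SD, n = 3), had 0 counts in all 6 of them. Col1a1, a collagen gene of stromal cells, stood at 50.6 ± 21.9 CPM in KO and 48.4 ± 12.8 CPM in WT at 2 h, against 1.93 ± 0.11 and 3.79 ± 0.752 CPM at 6 h (SD, n = 3 each), and the fibroblast marker list summed to 189.6 to 334 CPM at 2 h. The share of counts from mitochondrially encoded genes was 4.93 to 6.87% at LTA 2 h and 2.64 to 3.18% at LTA 6 h. Ticam2 stood at 2.77 ± 0.953 CPM in KO and 10.1 ± 1.14 CPM in WT at 2 h, a difference of -1.81 ± 0.37, against -4.0 in untreated cells and -4.49 after LTA 6 h. Wdfy1, Nnt and Rab4a, which differed by genotype in untreated cells, also stood apart less at 2 h. Wdfy1 differed by 0.75 ± 0.16 (untreated 2.07), Nnt by -0.024 ± 0.24 (untreated 1.06) and Rab4a by 0.25 ± 0.31 (untreated 1.91). Not every gene that differed in untreated cells did so: Apoe differed by -0.48 in both, and Cxcl10 by -0.70 untreated and -1.15 at 2 h. The part of these differences between the libraries in the comparison of times was not tested.

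At 2 h of LTA 1970 genes (13%) differed between KO and WT, and the genotype difference changed between 2 h and 6 h in 6143 genes (40.6%), 3042 more positive and 3101 more negative at 6 h (6030 and 1422 under total counts). This comparison was added after the data had been seen. At 2 h no IRF3 target was higher and 6 of 12 were lower (median -0.65), and of 58 interferon-stimulated genes 16 were lower and 3 higher (median -0.16). Inflammatory genes were not lower as a group at 2 h: 8 of 26 cytokines were higher and 6 lower (median 0.24), 9 of 16 chemokines higher and 2 lower (0.51), and 19 of 33 secondary inflammatory genes higher and none lower (0.56). Nos2 was higher in KO at 2 h (2.06 ± 0.21) and lower at 6 h (-3.55), and Saa3 likewise (1.63 and -2.0). Il6 and Il1b were at 0.25 ± 0.12 and 0.23 ± 0.043 at 2 h, and Tnf at 0.078 ± 0.039 (adjusted p = 0.21). Tlr2 was higher at 2 h (1.14) and lower at 6 h (-0.77).

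**Figure D5:**
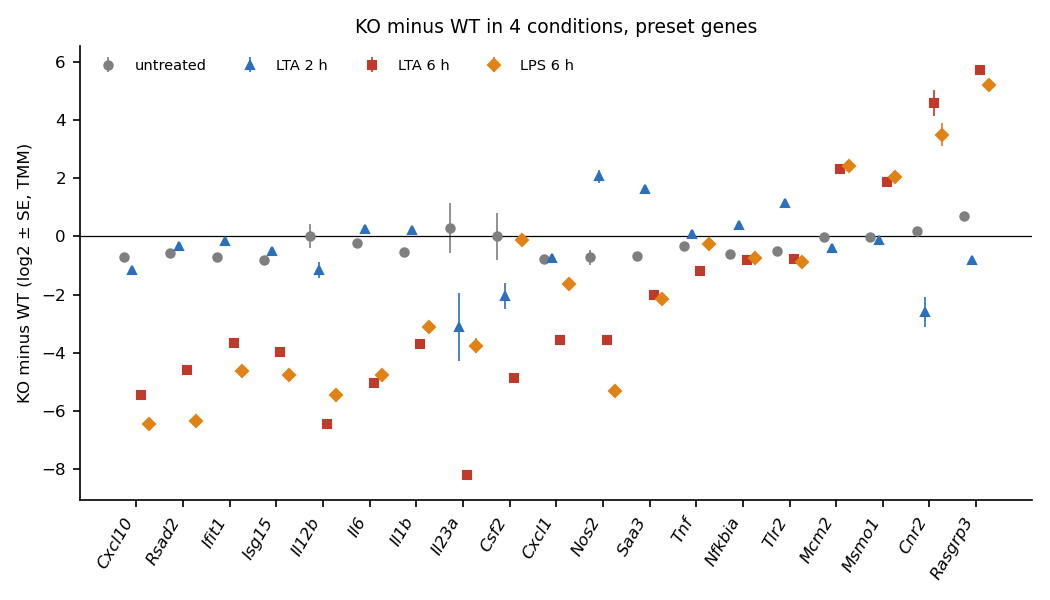
KO minus WT difference (log2 ± SE, TMM) of 19 genes in untreated cells, after LTA 2 h, after LTA 6 h and after LPS 6 h, 3 libraries per genotype in each. At LTA 6 h Cxcl10, Il12b, Il6 and Il23a are far below 0, at LTA 2 h Nos2, Saa3 and Tlr2 are above it, and Csf2 is near 0 with LPS.

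Wdfy1, Nnt and Rab4a were higher in KO without treatment as well as after LTA 6 h. Wdfy1 stood at 35.6, 36.6 and 34.1 CPM in KO and 7.1, 9.63 and 7.92 CPM in WT after LTA (2.1 ± 0.088) and differed by 2.07 in untreated cells. Nnt, the mitochondrial transhydrogenase in which the C57BL/6J strain is known to carry a deletion, stood at 9.47, 8.56 and 9.18 CPM in KO and 3.99, 3.79 and 5.64 CPM in WT (1.02 ± 0.14; 1.06 untreated). Rab4a stood at 7.02, 6.87 and 6.3 CPM in KO and 0.555, 0.541 and 1.3 CPM in WT (3.04 ± 0.22; 1.91 untreated). The change with LTA passed for Rab4a (1.14, adjusted p = 0.0027) and not for Wdfy1 (0.034, adjusted p = 0.88) or Nnt (-0.043, adjusted p = 0.88). Strain background and the Ticam2 allele cannot be told apart in this comparison, whether a gene differs without treatment or only after LTA. Within 5 Mb of Ticam2, 16 of 30 tested genes (53.3%) differed after LTA and 13.3% in untreated cells, and on other chromosomes the shares were 59.9% and 14%.

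Markers of other cells were checked in the same 6 libraries. Over all genes, 28.0% were lower in KO under TMM, and 58.9% were higher and 12.2% lower under total counts. T and NK cell markers passed the filter in 0 of 12 cases, with a summed level of 0.81 to 1.4 CPM (TMM) in KO and 0.757 to 0.999 in WT. Neutrophil markers summed to 25.01 to 26.2 CPM in KO and 51.4 to 51.96 in WT, with 5 of 6 lower. Fibroblast markers summed to 15.3 to 15.8 CPM in KO and 109.5 to 111.5 in WT, a gap that rests on Pdgfrb, at 7.02, 5.08 and 7.56 CPM in KO and 96, 93.5 and 96.4 CPM in WT, while Col1a1 and Col1a2 stood at 1.84, 2.05 and 1.89 CPM and 0.965, 0.981 and 0.54 CPM in KO and at 4.33, 4.11 and 2.93 CPM and 1.89, 1.84 and 2.39 CPM in WT. Haemoglobin and other red cell markers summed to 5587 to 6286 CPM in KO and 8290.0 to 9208 in WT under TMM, and to 5669 to 6350 CPM and 6183 to 6892 CPM under total counts, where the groups overlap, with 5 of 6 lower under TMM, and none lower and 1 higher under total counts. Their part in the results above was not tested.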

How the data were processed

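The authors deposited expected counts per gene (values that need not be whole, 25.2% of those above 0 were not) for 30 libraries and 32361 Ensembl IDs, and these were rounded to whole counts. The submitters' processing notes name STAR 2.7.11, Subread 2.1.1 and featureCounts, fastp 0.24.0, SAMtools 1.22.1 and the build GRCm38 (mm10). Their roles, the annotation release and the strand setting are not given there. GENCODE M21 gave symbols to 26314 IDs, and the 6047 others stayed in the tests. Sample groups came from the labels, and 0 columns were left out.

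In R 4.3.3 with edgeR 4.0.16, filterByExpr (minimum count 10, total 15) kept 15119 genes. A robust quasi-likelihood model of the 10 group means was fitted to the 30 libraries (residual degrees of freedom 20, biological coefficient of variation 0.0411), with TMM factors or with total counts alone. Standard errors are the size of the log2 fold change over the square root of F. Interaction contrasts tested differences between genotype effects. Alternatives were RLE factors, DESeq2 1.42.0, other filters, subsets of libraries, a replicate block and leaving out each library. A log2 CPM prior of 2 served checks of overlap. The code was tested on simulated data in which few genes changed after LTA 6 h, so that test does not check the scaling where many genes change.

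The 40 gene lists (774 genes, 717 tested) and the members were chosen with earlier results of these data known, so list counts are descriptions. Named genes are preset genes, up to 4 per list with the smallest p, the 12 largest rises and falls among non-overlapping genes whose mean log2 CPM reached 3, and the 6 largest interaction differences each way for untreated and for LPS. Members named as exceptions of a list were picked after their values were seen. Values of a few list members are not reported here.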

Additional observations from a re-analysis of the deposited data

Results flagged for a closer look

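The genotype difference after LTA 6 h was itself different from that in untreated cells in 6789 genes, from that after LPS 6 h in 3425 genes, and from that after LTA 2 h in 6143 genes, by tests of the difference.

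Several named genes were changed by genotype in opposite directions in the conditions compared, each past the threshold in both, and the test of the difference passed. Against LPS 6 h these were Maff, with a change of -1.87, and Mki67 at -0.87. Against untreated cells they were Cx3cr1 at 3.14, Gcnt1 at 3.62, Sqle at 1.82 and Herpud1 at 0.89, all lower in KO at rest and higher after LTA. The reverse held for Bcl2a1b at -2.07, Ccl3 at -2.01, Mki67 at -1.03, Mt1 at -0.97 and Mt2 at -2.82, which were higher in KO at rest and lower after LTA. Bcl2a1b has near-identical paralogs, among which the split of counts is uncertain.

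Against LTA 2 h, of the preset genes, Acod1 (-2.73), Ccl3 (-3.11), Cd14 (-2.08), Cd40 (-4.49), Gbp2 (-3.82), Il1b (-3.92), Il27 (-5.56), Lcn2 (-3.43), Myd88 (-1.34), Nfkbia (-1.21), Nfkbiz (-0.60), Nos2 (-5.62), Ptgs2 (-3.87), Saa3 (-3.63), Tlr2 (-1.91) and Txnrd1 (-1.85) were higher in KO at 2 h and lower at 6 h. Cnr2 (7.18), Mcm2 (2.73) and Rasgrp3 (6.53) were lower at 2 h and higher at 6 h. Cnr2 was scarce, at 1.02 ± 0.894 CPM in KO at 2 h (SD, n = 3), and its WT libraries at 6 h held 1 count each. By counting error (3 counts), a count of 0 allows up to 1.27 to 1.67 CPM in the KO libraries of LTA 2 h. Under total counts Nfkbiz was higher at 6 h as well (0.23). The 2 h libraries differ from the 6 h ones in depth, haemoglobin counts, stromal marker levels, the share of mitochondrially encoded genes and the size of the Ticam2, Wdfy1, Nnt and Rab4a differences, and the part of this in these values was not tested.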

How the results depend on the processing

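Total-count scaling was the setting that moved the counts of genes by more than 1.5 times. After LTA 6 h it gave 8906 genes higher and 1837 lower, with 3215 and 807 of at least 2-fold, against 4604, 4237, 1615 and 1370 under TMM. For the difference from untreated it gave 7970 more positive and 1262 more negative, with 2812 and 549 of at least 2-fold, against 3752, 3037, 1373 and 933. For the difference from LPS it gave 2304 more negative, against 1382, and for that from LTA 2 h 6030 and 1422, with 3399 and 790 of at least 2-fold, against 3042, 3101, 1885 and 1371. Under RLE factors, DESeq2, other filters, subsets of libraries, the replicate block and leaving out each library, all counts stayed within 1.5 times. Of 8841 calls, 7831 to 8158 kept their direction and threshold with 1 library left out, 7893 with DESeq2 and 8825 with the replicate block. Same-numbered KO and WT libraries had correlations of deviations of 0.004 to 0.016 after LTA, -0.022 to -0.007 untreated and 0.033 to 0.185 after LPS, not over 0.1 in every pair, so they were taken to share only a number. Within KO, same-numbered LTA 6 h and untreated libraries had correlations of -0.023 to 0.013, and LTA 6 h and LPS 6 h libraries -0.044 to 0.038. Within WT the same values were -0.033 to 0.024 and -0.038 to 0.042. Of 201 named genes, 12 turned under total counts: Alas2 (0.058), Atp5b (0.081), Cs (0.073), Fgl2 (0.11), mt-Co1 (0.065), mt-Co3 (0.20), mt-Nd4 (0.20), Nfkbiz (0.23), Rpl19 (0.20), Rpl27 (0.20), Rpl7 (0.20) and Rps9 (0.20). A further 8 lost their call there. Leaving out a library cost Col1a1 its call in 5 of 6 cases (-1.01 to -0.92; adjusted p 0.068 to 0.089 by edgeR) and Kit in 2, without KO library 2 (0.88) or WT library 1 (0.72). Each group holds 3 libraries, and genes under about 1 CPM rest on few counts.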
